A study of Homo sapiens with 6 samples.

Results

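The 5 NF-κB subunits and 5 of the genes that NF-κB induces to restrain or shape its own activity were followed in PC-3 prostate cancer cells, with and without an inducible tristetraprolin (TTP) construct. The subunits were RELA, RELB, REL, NFKB1 and NFKB2, and the feedback genes were NFKBIA, NFKBIE, NFKBIZ, TNFAIP3 and BIRC3. They were taken by gene symbol, as 10 of the 22933 symbols in the deposited table. Where a symbol had several loci, the one with the most RefSeq names was used, then the one with the highest summed expression.

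NF-κB subunits form dimers that inhibitors of the IκB family hold inactive in the cytoplasm. Signals from cytokine or Toll-like receptors activate the IκB kinase complex, which marks IκB proteins for degradation and frees the dimers to enter the nucleus and bind κB sites. Several of the genes switched on in this way encode inhibitors, which closes a feedback loop. TTP, encoded by ZFP36, binds AU-rich elements in the 3′UTR of mRNAs, among them mRNAs of inflammatory mediators, and promotes their decay.

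PC-3 is an established line of epithelial cells from a bone metastasis of a prostate adenocarcinoma. All cells carried a retrovirus for the Tet-On transactivator rtTA2, and a second retrovirus, whose carriers were sorted by tdTomato fluorescence, gave either tdTomato alone (tdTom) or Dox-inducible TTP together with tdTomato (TTP-tdTom). The tdTomato reporter was driven by the PGK promoter, and both groups were transduced populations that received 300 ng/ml doxycycline (Dox) for 4 h, so the controls shared the transactivator, the reporter and the drug. RNA-Seq was performed on 3 samples of each group. Nothing in the labels says that the samples came from separate cultures.

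The values are FPKM (fragments normalised for transcript length and library size), with 1 value per group that the authors derived from its 3 samples. The spread between samples, the depth of each sample and a test of any difference could therefore not be obtained from these values, and each comparison below describes those group values. ZFP36 stood at 5.56 FPKM in tdTom and 5.54 FPKM in TTP-tdTom, so the level at TTP's own locus did not separate the groups. Whether fragments from the construct were counted at that locus was not analysed here, so these values neither check the labels nor count against them, and every direction given below is that of the group labelled TTP-tdTom. The epithelial markers KRT8, KRT18, KRT19 and EPCAM were between 15.1 and 98.2 FPKM in tdTom and between 16.8 and 91.5 FPKM in TTP-tdTom, with sums of 194.4 and 194.5 FPKM. None of the 4 haematopoietic markers and neither of the 2 endothelial markers reached 1 FPKM in both groups, and of the 2 fibroblast markers COL1A1 did, at 4.34 and 4.56 FPKM.

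For 12032 symbols both groups had at least 1 FPKM. Their log2 fold changes of TTP-tdTom over tdTom had a median of -0.24, a 10th percentile of -0.93 and a 90th percentile of 0.13. The transcriptome as deposited was thus shifted to lower values, and 81.2% of these symbols were lower in TTP-tdTom by any amount. All 10 NF-κB genes passed this level. Of them, 8 were lower and 2, NFKBIA and NFKBIE, were higher, a share of 80% lower beside 81.2% of all symbols. BIRC3 and the row that carries NFKBIZ were lower by at least 1.5-fold, which is 20% of the 10 genes beside 22.4% of all symbols. That row also carries the neighbouring gene FAM55C, so its value cannot be assigned to NFKBIZ. No NF-κB gene was higher by at least 1.5-fold, beside 1.07% of all symbols, and none was lower by at least 2-fold, beside 7.92%. The median of the 10 genes was -0.19. Counted this way the group was close to the background, and what follows concerns its single genes.

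**Figure D1:**
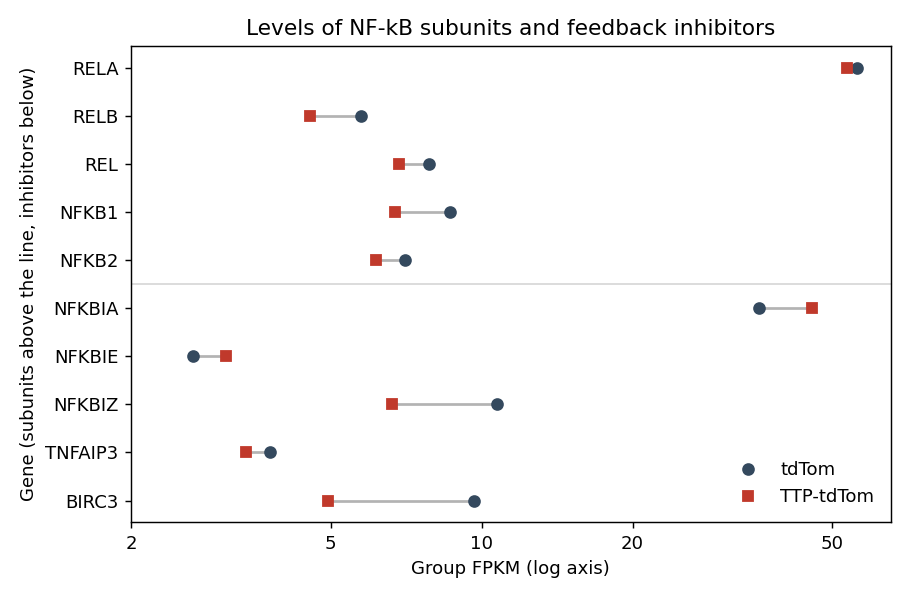
Group FPKM (log axis) of the 5 subunits and 5 feedback genes in tdTom (circles) and TTP-tdTom (squares), with a line joining the 1 value per group; no error can be drawn. RELA and NFKBIA lie to the right of the other 8 genes in both groups, the squares lie left of the circles for all but NFKBIA and NFKBIE, and the longest gap is that of BIRC3, from 9.66 to 4.94 FPKM.

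Among the subunits, RELA, the transactivating partner of the classical dimer, was by far the most abundant. Its level was 56.1 FPKM in tdTom and 53.6 FPKM in TTP-tdTom, 95.5% of the control (log2 fold change -0.07). The locus lies at chr11:65420291-65430443 in GRCh37, the build of the deposited coordinates. RELA made up 65.7% of the summed FPKM of the 5 subunits in tdTom and 68.8% in TTP-tdTom, while that sum was 85.4 and 77.8 FPKM. A second locus under the same symbol and coordinates held 0.885 and 0.544 FPKM.

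NFKB1 encodes the p105 precursor of p50, the partner of RELA in that dimer. It was at 8.65 FPKM in tdTom and 6.71 FPKM in TTP-tdTom, 77.5% of the control (log2 fold change -0.37; chr4:103422486-103538470). This was the lowest log2 fold change among the subunits. RELB and NFKB2, which encodes the p100 precursor of p52, form the dimer of the non-canonical pathway. RELB was at 5.74 and 4.54 FPKM, 79.1% of the control (log2 fold change -0.34; chr19:45504707-45541456). NFKB2 was at 7.03 and 6.17 FPKM, 87.8% of the control (log2 fold change -0.19; chr10:104153867-104182893). REL, a further transactivating subunit best known from lymphoid cells, was at 7.86 and 6.83 FPKM, 87.0% of the control (log2 fold change -0.20; chr2:61108590-61151319).

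All 5 subunits were thus lower in TTP-tdTom as the values were deposited, none by 1.5-fold, but the signs of RELA, REL and NFKB2 turn once the median shift of -0.24 is taken off, to centred values of 0.17, 0.04 and 0.05. NFKB1 and RELB kept their sign on that scale, with centred values of -0.13 and -0.10. When the groups were instead brought to the same upper quartile, all 5 subunits were higher in TTP-tdTom. The share of all symbols that were lower was 81.2% as deposited and 33.6% at the same upper quartile.

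The feedback genes did not share a direction. NFKBIA, which encodes IκBα, the inhibitor that is degraded on stimulation and promptly made again, was at 35.8 FPKM in tdTom and 45.5 FPKM in TTP-tdTom, 127% of the control (log2 fold change 0.35; chr14:35870716-35876871). All scalings tried added to the log2 fold change of each gene, so a gene above its control could not turn under them. Its log2 fold change lay at percentile 97.0 of the 12032 symbols, and at percentile 99.0 among symbols of the same decile of expression. NFKBIE, which encodes IκBε, was the least abundant of the 10 genes, at 2.66 FPKM in tdTom and 3.09 FPKM in TTP-tdTom, 116% of the control (log2 fold change 0.21; chr6:44225408-44233525). It lay at percentile 93.5 of all symbols and at percentile 88.0 among symbols of its own decile of expression.

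TNFAIP3 encodes A20, an enzyme that edits ubiquitin chains on signalling adaptors and so ends signalling to the IκB kinases. It was at 3.79 FPKM in tdTom and 3.39 FPKM in TTP-tdTom, 89.5% of the control (log2 fold change -0.16; chr6:138144807-138204451). After centring on the median of all symbols its value was 0.08, so its sign depends on the scaling.

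BIRC3 encodes cIAP2, a ubiquitin ligase of the inhibitor of apoptosis (IAP) family that is recruited to TNF receptors. It was at 9.66 FPKM in tdTom and 4.94 FPKM in TTP-tdTom, 51.2% of the control (log2 fold change -0.97; chr11:102187633-102210873). This was the lowest log2 fold change of the 10 genes, at percentile 8.84 of all symbols. BIRC3 was lower under all scalings, with a centred value of -0.73, but at the same upper quartile its value of -0.57 no longer reached 1.5-fold. A second locus with the BIRC3 symbol was at 0.697 and 0.378 FPKM. A locus without a symbol at the same coordinates went the other way, from 1.01 to 3.01 FPKM, and its strand and relation to BIRC3 were not analysed here.

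NFKBIZ encodes IκBζ, a nuclear member of the IκB family that acts with p50 at selected promoters. The row that carries its symbol was at 10.7 FPKM in tdTom and 6.63 FPKM in TTP-tdTom, 61.7% of the control (log2 fold change -0.70; chr3:101498029-101581405). The value is that of NFKBIZ and FAM55C together. It was lower under all scalings, but after centring (-0.46) and at the same upper quartile (-0.30) it no longer reached 1.5-fold. With 2 further rows of the symbol added the log2 fold change was -0.51, also short of 1.5-fold.

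FPKM is normalised for length, so levels can be ranked between genes within a group. RELA was first and NFKBIA second in both groups, and RELB, TNFAIP3 and NFKBIE took places 8, 9 and 10 in both. The middle of the order changed. BIRC3 went from place 4 in tdTom to place 7 in TTP-tdTom, the NFKBIZ row from 3 to 5, and REL from 6 to 3. REL, NFKB1, the NFKBIZ row and NFKB2 lay between 6.17 and 6.83 FPKM in TTP-tdTom, and whether these neighbours differ beyond their spread was not tested.

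A ratio of 2 genes within a group does not depend on how the groups were scaled. The FPKM of NFKBIA was 0.638 of that of RELA in tdTom and 0.85 in TTP-tdTom, a ratio 1.33 times as high. For NFKBIE the ratio to RELA was 0.0474 and 0.0576, or 1.21 times as high. For TNFAIP3 it was 0.0675 and 0.0633, close to its control. For BIRC3 it was 0.172 and 0.0923, or 0.536 of its control, and for the NFKBIZ row 0.191 and 0.124, or 0.646 of its control. Relative to RELA, therefore, the IκBα and IκBε mRNAs were higher and the BIRC3 mRNA was lower in the group labelled TTP-tdTom. RELA and BIRC3 differ in the GC content of their transcripts (60% and 38.2%), with which fold changes moved, as given below. The part of GC content in these ratios was not tested.

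The rest of the pathway was described with lists of known components. Of 20 kinases and adaptors, which carry the signal from receptors to IκB, 19 reached 1 FPKM in both groups. Of these, 17 (89.5%) were lower, beside 81.2% of all symbols. By at least 1.5-fold 4 (21.1%) were lower (CHUK, MAP3K7, TAB2 and TAB3), beside 22.4% of all symbols, and none was higher. The median was -0.25, beside -0.24 for all symbols. After centring 10 were lower and TAB3 alone by at least 1.5-fold, and at the same upper quartile 8 were lower and none by that fold. TAB3, an adaptor of the kinase TAK1, had the lowest log2 fold change, from 8.53 FPKM in tdTom to 4.48 FPKM in TTP-tdTom (-0.93). The highest was that of the TNF receptor adaptor TRADD, at 8.96 and 9.80 FPKM (0.13), in a row shared with B3GNT9. Between these, IKBKB, the catalytic kinase of the classical pathway, was at 3.39 and 3.38 FPKM, whereas CHUK, its partner kinase, was at 4.39 and 2.61 FPKM.

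Of 11 receptors, 6 reached 1 FPKM in both groups, 5 of them lower and 2 by at least 1.5-fold (TNFRSF11A and IL1RAP). These are 83.3% and 33.3%, beside 81.2% and 22.4% of all symbols. The median was -0.38, beside -0.24 for all symbols. After centring IL1RAP alone was lower by at least 1.5-fold, and at the same upper quartile none of the 6 was. IL1RAP, the co-receptor for interleukin-1, was lowest, from 6.42 to 3.37 FPKM (-0.93). TNFRSF1A, the main TNF receptor, was highest, at 23.4 and 24.9 FPKM (0.09). Of the 5 that did not, 2 were lower and 3 higher. The Toll-like receptors TLR2, TLR3 and TLR4 were all below 1 FPKM.

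Of 16 other inhibitors, 14 reached 1 FPKM in both groups. Of these, 11 (78.6%) were lower, beside 81.2% of all symbols. By at least 1.5-fold 5 (35.7%) were lower (CYLD, TAX1BP1, ITCH, RNF11 and NKIRAS2), beside 22.4% of all symbols. The median was -0.41, beside -0.24 for all symbols. The count of 5 became 3 after centring (TAX1BP1, ITCH and RNF11) and 1 at the same upper quartile (RNF11). RNF11, a ubiquitin ligase, had the lowest log2 fold change of the list, from 7.49 to 2.32 FPKM (-1.69). NFKBIB, the gene for IκBβ and so a relative of NFKBIA and NFKBIE, had the highest, at 7.45 and 8.16 FPKM (0.13). TNIP1 and TNIP2, which encode proteins that bind A20, were at 19.6 and 18.8 FPKM and at 3.59 and 3.61 FPKM.

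Of the other IAP genes, BIRC2 and XIAP were examined. BIRC2, the close paralogue and genomic neighbour of BIRC3, was at 43.7 FPKM in tdTom and 21.7 FPKM in TTP-tdTom (-1.01), and was more abundant than BIRC3 in both groups. XIAP was at 5.95 and 3.84 FPKM (-0.63). Both were lower by at least 1.5-fold as deposited, beside 22.4% of all symbols, and BIRC2 stayed so under all scalings, whereas XIAP did so under none.

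Of 28 target genes of NF-κB, 14 reached 1 FPKM in both groups. Of these, 13 were lower, 5 by at least 1.5-fold (CXCL1, IL8, IER3, PLAU and GCH1), and the median was -0.33. After centring 8 were lower, the same 5 by at least 1.5-fold, and at the same upper quartile 6 were lower, 4 of them by that fold, without GCH1. Of the 14 that did not, 4 were lower and 10 higher, so that over all 28 genes 17 were lower and 11 higher. Those lower were CXCL5 (1.54 to 0.978 FPKM), IL1A (1.47 to 0.726), IL1B (1.36 to 0.508) and CCL20 (0.409 to 0.141). CXCL5, IL1A and IL1B were thus above 1 FPKM in tdTom and missed the filter through their TTP-tdTom value. The 10 higher genes were all below 1 FPKM in tdTom, among them CXCL3 at 0.846 and 1.69 FPKM and IL6 at 0.386 and 0.804 FPKM. Among the 14 that reached 1 FPKM in both groups, IL8, a neutrophil chemokine, had the lowest log2 fold change, from 61.4 to 11.8 FPKM (-2.38). IL32 had the highest, from 1.46 to 1.69 FPKM (0.22). NFKBIA, itself a target of NF-κB, lay above its control, whereas IL8, the lowest of these 14, was at 19.2% of its control. The activity of NF-κB was not measured. The counts in these lists are to be read beside those of all symbols, and no list was tested. As deposited, 81.2% of all symbols were lower by any amount and 22.4% by at least 1.5-fold. These shares were 50% and 12.9% after centring and 33.6% and 8.26% at the same upper quartile.

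**Figure D2:**
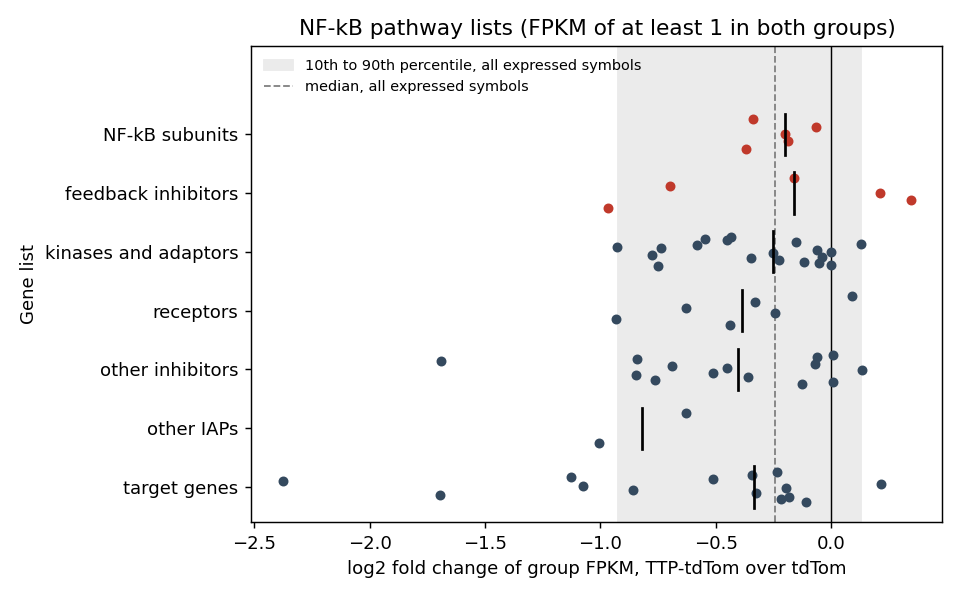
Log2 fold change of the group FPKM, TTP-tdTom over tdTom, for each gene with at least 1 FPKM in both groups, by list; the short vertical lines are list medians, the dashed line is the median of all 12032 symbols (-0.24) and the grey band their 10th to 90th percentile. NFKBIA and NFKBIE lie right of the band, BIRC3 just left of it, and IL8, CXCL1 and RNF11 far to the left.

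Fold changes in this comparison moved with base composition. Among the 11111 symbols (92.3% of 12032) that could be matched to a GENCODE release 29 transcript with a 3′UTR, the median log2 fold change was -0.76 in the decile of lowest transcript GC content and -0.10 in the highest decile. BIRC3 is AU-rich, with 38.2% GC, and differed from the median of its decile by -0.21, at percentile 32.2 of that decile. REL has a like GC content of 38.7% and differed from the same median by 0.56, at percentile 87.3. It lies at the upper edge of that decile, and the median of the next decile was -0.55. NFKBIA (53.1% GC) differed from its decile by 0.49, at percentile 96.6, and NFKBIE (61.0% GC) by 0.33, at percentile 91.4. RELB, the most GC-rich of the 10 with 65.2%, differed by -0.24, at percentile 12.4, and the NFKBIZ row, matched to a transcript of 46.2% GC, by -0.43, at percentile 14.2. Set beside transcripts of like composition, NFKBIA and NFKBIE thus lay above the 90th percentile, and the other 8 genes, BIRC3 included, lay between the 10th and the 90th. The part of base composition in these values was not tested.

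**Figure D3:**
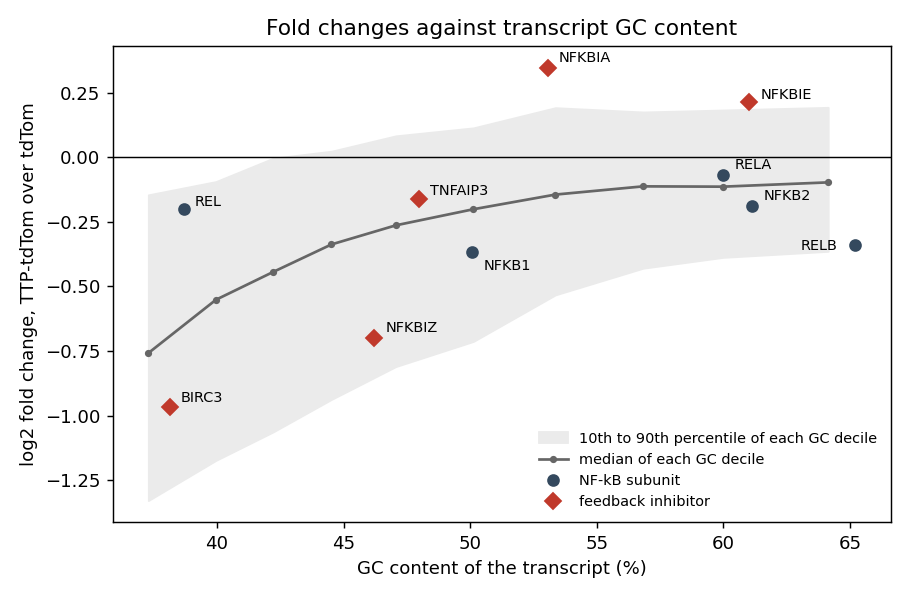
Log2 fold change of the group FPKM against the GC content of the matched transcript (%) for the 5 subunits (circles) and the 5 feedback genes (diamonds), with the median (line) and the 10th to 90th percentile (grey) of each GC decile of 11111 symbols. BIRC3 and REL share the lowest decile, with values of -0.97 and -0.20; NFKBIA and NFKBIE lie above the grey band.

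As TTP binds AU-rich elements, the matched 3′UTRs were searched for the heptamer UAUUUAU. It occurred in 32.3% of the 11111 3′UTRs and in those of 4 of the 10 genes: REL, NFKBIA, TNFAIP3 and BIRC3. The windows around it are shown because these 4 genes hold the heptamer and yet include both the highest and the lowest log2 fold change of the 10. Each window is written 5′ to 3′ with the heptamer in capitals, and the name gives the position of its first base, counted from the base after the stop codon. The cluster of 3 closely spaced heptamers in IL8, the target gene with the lowest log2 fold change, is added for comparison.
BIRC3 94: aaaauuuuUAUUUAUuuacaacu
BIRC3 133: guguaacaUAUUUAUauauguau
BIRC3 1616: agagaauuUAUUUAUggccagcu
NFKBIA 297: acauuuuaUAUUUAUugugcuuc
NFKBIA 476: augauguaUAUUUAUuaaacaga
TNFAIP3 990: auucacuuUAUUUAUuuuauuac
TNFAIP3 1841: aaaguaauUAUUUAUacuuauua
REL 87: uaauacuaUAUUUAUacuguaua
REL 1714: uuacuaagUAUUUAUucauuuac
REL 2482: uauauaauUAUUUAUuuugcccu
REL 8173: aaucacucUAUUUAUucuaaaug
IL8 649: aaccUAUUUAUUAUUUAUgUAUUUAUuuaa

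The 3 heptamers of BIRC3 lie in a 3′UTR of 2301 bases, the 2 of NFKBIA in 502 bases, the 2 of TNFAIP3 in 1993 bases and the 4 of REL in 9075 bases. NFKBIA had the highest density, with 3.98 heptamers per kilobase, and the highest log2 fold change of the 10 genes. The longer nonamer UUAUUUAUU, which 8.18% of the 3′UTRs held, occurred once each in BIRC3 (at the first heptamer above), TNFAIP3 (at position 990) and REL (at position 2482), and not in NFKBIA. The 6 genes without the heptamer were RELA, RELB, NFKB1, NFKB2, NFKBIE and NFKBIZ. Their log2 fold changes ran from -0.70 for the NFKBIZ row to 0.21 for NFKBIE, and those of the 4 genes with it from -0.97 to 0.35, so the ranges overlapped and the count of heptamers did not order the 10 genes.

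Over all matched symbols the median log2 fold change was -0.18 for 7525 symbols without the heptamer, -0.37 for 2151 with 1 copy, -0.59 for 1120 with 2 or 3 and -0.63 for 315 with 4 or more. The median GC content went the same way across these classes, from 51.5% to 40.2%, and whether composition or heptamers went with the fold was not tested. Within them, REL with 4 copies (-0.20) and TNFAIP3 (-0.16) and NFKBIA (0.35) with 2 each were above their class median, and BIRC3 with 3 copies (-0.97) was below it. Binding of TTP to any of these mRNAs was not measured.

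**Figure D4:**
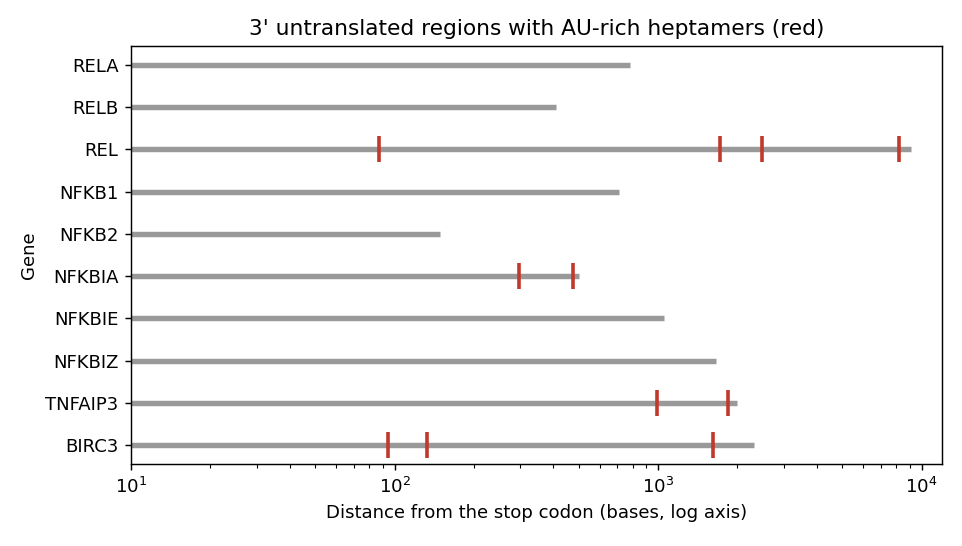
Matched 3′UTR of each gene (grey line, to its end) with the start of each AU-rich heptamer (red), against the distance from the stop codon in bases on a log axis that starts at 10. REL holds 4, BIRC3 3, NFKBIA and TNFAIP3 2 each, and the other 6 genes none.

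Promoter windows of 300 bases, most of them upstream of the start of transcription, were taken from RefSeq on GRCh38.p14, a later build than that of the deposited coordinates. They were searched on both strands for the κB consensus decamer, which 5.91% of all 35116 windows held. Of the 8 genes with a window, 7 held at least 1 match, the exception being RELA. RELB and NFKBIE had no entry. Counted per gene, 7.09% of all 27305 genes held a match in at least 1 of their windows, and the 8 genes had 1 to 3 windows each. The feedback genes were chosen as genes that NF-κB induces, so these shares are no test of enrichment. All matches of NFKBIA, BIRC3, TNFAIP3 and NFKBIZ, the feedback genes with a window, are shown 5′ to 3′ along the gene, with the decamer in capitals, and that of NFKB1 is added as the partner gene of RELA. The strand given is that of the gene. The decamers of NFKBIA, BIRC3 and TNFAIP3 match the consensus when read on the opposite strand, and those of NFKBIZ and NFKB1 match it as written.
NFKBIA chr14:35404813-35404838, - strand: actggcttGGAAATTCCCcgagcctg
BIRC3 chr11:102317277-102317302, + strand: tgggtcatGGAAATCCCCgagtgggt
BIRC3 chr11:102317341-102317366, + strand: ttaccgctGGAGTTCCCCtaagtcct
TNFAIP3 chr6:137867184-137867209, + strand: gtgactttGGAAAGTCCCgtggaaat
TNFAIP3 chr6:137867196-137867221, + strand: agtcccgtGGAAATCCCCgggcctac
NFKBIZ chr3:101827759-101827784, + strand: tttggtctGGGAATTTCCagtgtgca
NFKBIZ chr3:101849267-101849292, + strand: gcgctgtcGGGGTTTCCCggtgaagg
NFKB1 chr4:102501302-102501327, + strand: acgtcagtGGGAATTTCCagccagga

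NFKBIA and BIRC3 thus both hold κB matches in these windows, starting at position -81 from the start of transcription in NFKBIA and at -199 and -135 in BIRC3, and their log2 fold changes were the highest and the lowest of the 10 genes. A match of letters is a description, and binding at these sites was not measured.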

How the data were processed

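RNA was taken from Dox-treated PC-3 cells, and the authors made strand-specific libraries with a paired-end run, aligned them with TopHat2 2.0.13 to GRCh37 (Hs37D5) and compared the groups with Cufflinks 2.2.1. The deposited table gives, for each of 406165 loci, 1 FPKM per group, computed by the authors over 3 samples. Its log2 fold changes, test statistics, p-values and q-values hold the authors' own comparison and were not used. Depth per sample was not analysed here, so no interval is given.

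Log2 ratios were computed from the FPKM values without a pseudocount, with pandas 2.3.3 and numpy 2.4.6 (Python 3.11.15), and the code was tested on simulated data. A symbol counted as expressed from 1 FPKM in both groups, and as lower or higher from 1.5-fold. The genes and lists were chosen with earlier results of these data known. All 10 genes are named, with the expressed genes of lowest and highest log2 fold change in each list. Other genes were named after their values were seen, those past 1.5-fold in a list among them. Scaling, pseudocount, filter, fold and locus choice were varied. 3′UTRs came from GENCODE release 29, from the transcript with the longest coding sequence, then the longest 3′UTR. Locus starts are counted from 1.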

Additional observations from a re-analysis of the deposited data

How the results depend on the processing

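No paired analysis was possible because the table holds 1 value per group, and for the same reason leaving out replicates and normalising counts were not run. The count of NF-κB genes lower by 1.5-fold, 2 as reported, was 1 after centring on the median of all symbols, 1 with FPKM summed over all rows of a symbol, 0 at the same upper quartile and 0 at 2-fold. Their median log2 fold change, -0.19 as reported, was 0.047 after centring, -0.14 at the same sum, 0.21 at the same upper quartile and -0.17 with a pseudocount of 1 FPKM. The count of all symbols lower by 1.5-fold, 2695 as reported, was 1551 after centring, 994 at the same upper quartile, 953 at 2-fold and 4154 of 20805 without the filter. Centring added 0.24 to each log2 fold change, the same sum 0.05 and the same upper quartile 0.40. Of the 10 genes, 4 were then lower after centring, beside 50% of all symbols, and 2 at the same upper quartile, beside 33.6%. BIRC3 and the NFKBIZ row stayed lower under all settings tried, while NFKBIA and NFKBIE, being above their controls, could not turn under scalings that add to each value. BIRC3 ranged from -0.97 to -0.57 and NFKBIA from 0.34 to 0.75.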

Other observations

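At the coordinates of 4 of the 10 genes the table lists 5 further loci without a symbol. Those at NFKBIA were at 1.01 FPKM in tdTom and 0.624 FPKM in TTP-tdTom, and at 1.09 and 1.31 FPKM. That at NFKBIZ was at 1.49 and 0.701 FPKM, and that at TNFAIP3 at 0.207 and 0.247 FPKM. The one at BIRC3, from 1.01 to 3.01 FPKM, was the only one above 1 FPKM in both groups whose direction was opposite to that of the named gene.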
